A study of Mus musculus with 6 samples.

Results

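The differentiation response of C2C12 cells with reduced Kap1 was read from 3 of the 6 libraries of the series, chosen by their sample titles: MT_shKap1 (1 library) and MB_shKap1 (replicates 1 and 2). C2C12 is a mouse myoblast line of C3H origin that fuses into myotubes when growth medium is replaced by differentiation medium. MB cells were proliferating in medium with fetal calf serum, and MT cells had spent 48 hours in medium with horse serum and an insulin, transferrin and selenium supplement. All cells of both shKap1 groups carried a lentiviral short hairpin against Kap1. MB_shCtrl (2 libraries) and MT_shCtrl (1 library) carried the same kind of vector with a hairpin against luciferase and are used only where the responses are compared. Cytoplasmic, polyadenylated RNA was sequenced, so the level of a gene is that of its transcript outside the nucleus. One hairpin per target is named by the labels, which do not say whether transduced cells were pooled or cloned, and in bulk RNA fewer cells of a type and less RNA per cell cannot be told apart.

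KAP1, encoded by Trim28, is a scaffold that joins histone methyltransferases, deacetylases and chromatin remodelers to zinc finger proteins. In myoblasts it is also known as a partner of MyoD and Mef2, the transcription factors that drive muscle genes. During differentiation myoblasts leave the cell cycle, switch on Myog and then build sarcomeres, calcium stores and the fusion machinery. Interferon response genes form a separate program, which STAT and IRF factors switch on against viruses.

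The knockdown libraries held 36247530 (MT), 46655991 and 43672621 (MB replicates 1 and 2) counts on genes. Trim28 was at 150 and 102 CPM (counts scaled to the size of each library, corrected with TMM factors) in MB_shKap1 and at 114 CPM in MT_shKap1, against 394 to 596 CPM in the 3 control libraries, so the transcript was reduced at both stages and not lost. The muscle lineage markers Des (303, 751 and 517 CPM in MB replicate 1, MB replicate 2 and MT), Myf5 (48.9, 92.8 and 77.1 CPM) and Cdh15 (25.7, 160 and 128 CPM) were present in every knockdown library. The deposited file of MT_shKap1 carries a mark in its name that the file of MB_shKap1 replicate 1 also carries and that of replicate 2 lacks. What the mark stands for is not stated in the labels. The MB_shKap1 replicates were at least 2-fold apart in 2686 genes (16.3% of those tested), so the values of both are given for the genes described.

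Many genes still moved when knockdown cells were placed in differentiation medium, but how many could be called depended on how the MB replicates were treated. Without a term for the file mark, edgeR's quasi-likelihood test with Benjamini-Hochberg adjustment called 0 of 16472 genes. The smallest adjusted p was 0.239, 2512 genes had an unadjusted p under 0.05 (1226 higher and 1286 lower in MT), and DESeq2 called 751 (335 higher, 416 lower). With the mark as a term, 5446 genes passed an adjusted p of 0.05 (33.1%), of which 2736 rose (16.6%) and 2710 fell (16.5%). Of these, 1407 rose and 653 fell by at least 2-fold. In this second fit the response rests mainly on MB_shKap1 replicate 1, replicate 2 entering through the difference between marked and unmarked files, which is taken to be the same in knockdown and control cells. It leaves 1 residual degree of freedom, and the lone MT libraries are assumed to vary like the MB libraries. Whether the MB replicates are independent cultures is not stated. The p-values therefore reflect the spread among these libraries alone, and that spread may be technical. In what follows, rose and fell refer to genes called with the mark term.

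A count that needs no model gave a narrower set. In MT_shKap1, 1257 genes (7.63%) were at least 2-fold above both MB_shKap1 libraries and 411 (2.5%) at least 2-fold below both. Above both by any amount were 6389 genes (38.8%), and below both 6005 (36.5%). Of the genes that rose, 824 were also at least 2-fold above both libraries, while 348 (12.7%) were below replicate 2. Among those that fell, 277 were at least 2-fold below both and 207 (7.64%) were above replicate 2. With 1 library against 2, an exact test cannot give p below 0.33, so these counts are descriptions.

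**Figure D1:**
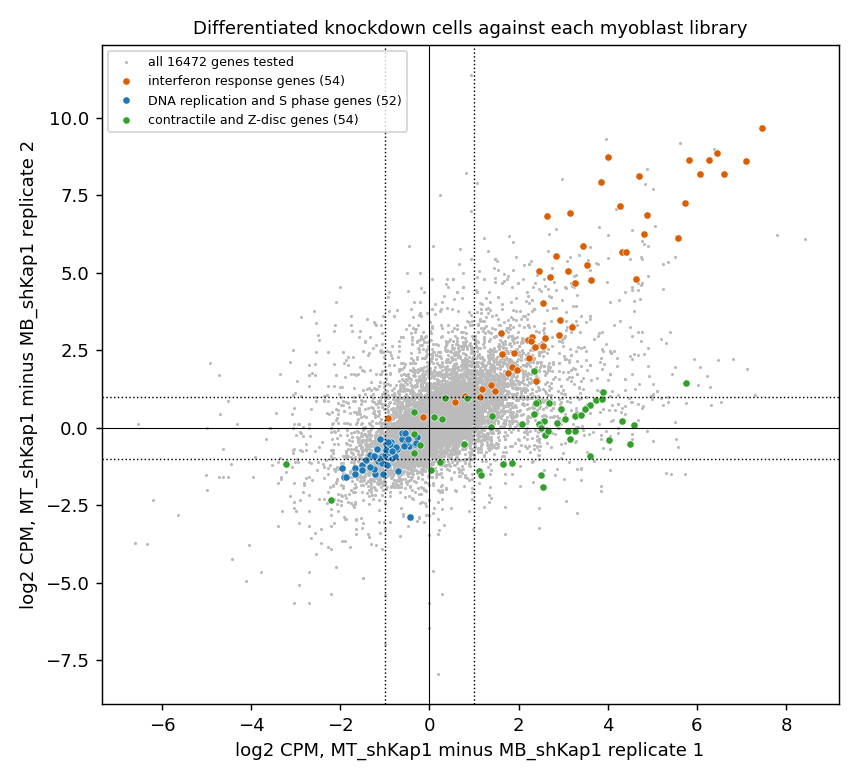
Each point is a gene, placed by its log2 CPM in MT_shKap1 minus that in MB_shKap1 replicate 1 (horizontal axis) and minus that in replicate 2 (vertical axis), with dotted lines at 2-fold. The 54 interferon genes lie mostly above both dotted lines and the 52 replication genes below both zero lines, whereas the 54 contractile genes spread to the right and stay near 0 on the vertical axis.

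Most interferon response genes were above both MB libraries. Of the 54 tested members of the list (55 listed, 1 without a row in the files), 51 rose and 1 fell, against 16.6% and 16.5% of all genes, and 49 were at least 2-fold above both MB_shKap1 libraries, against 7.63% of all genes. The list's median log2 difference was 2.88 against replicate 1 and 4.73 against replicate 2, where all genes had medians of 0.02 and 0.01. Ifitm1, a membrane protein that blocks virus entry, fell, and its relative Ifitm2 did not pass. For both, MT lay between the MB libraries. The RNA-binding Ifit1 did not pass either (adjusted p = 0.142, edgeR), although MT was at least 2-fold above both MB libraries. Part of the regulation of these genes runs through the interferon-stimulated response element, which is bound by IRF9 with STAT proteins. Its core, searched on both strands as GAAA, 2 bases of any kind and GAAA again, was present in 25 of the 49 promoters that RefSeq gives for 43 list members (51%), against 1131 of all 32851 promoters in the table (3.44%). The 3 promoters below, from 250 bases before to 50 after the start of the gene, are those of members described next. They come from RefSeq on GRCm38.p6 (the counts were made on mm9), are written along the gene's own strand, and have the matches to the element in capitals, as the core or as its reverse complement.
Igtp (chromosome 11, 58199306 to 58199605, plus strand): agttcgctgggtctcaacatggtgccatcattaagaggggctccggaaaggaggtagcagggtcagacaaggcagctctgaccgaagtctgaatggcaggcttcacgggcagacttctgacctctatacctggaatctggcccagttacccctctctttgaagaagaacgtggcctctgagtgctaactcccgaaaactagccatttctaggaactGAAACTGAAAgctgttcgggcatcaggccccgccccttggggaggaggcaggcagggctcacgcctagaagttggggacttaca
Trim30a (chromosome 7, 104465144 to 104465443, minus strand): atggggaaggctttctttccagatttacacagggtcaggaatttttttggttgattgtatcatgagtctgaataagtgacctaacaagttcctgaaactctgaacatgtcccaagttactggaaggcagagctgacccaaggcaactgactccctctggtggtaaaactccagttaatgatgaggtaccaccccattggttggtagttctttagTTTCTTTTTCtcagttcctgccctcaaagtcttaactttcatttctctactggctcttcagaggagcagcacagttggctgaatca
Bst2 (chromosome 8, 71537423 to 71537722, minus strand): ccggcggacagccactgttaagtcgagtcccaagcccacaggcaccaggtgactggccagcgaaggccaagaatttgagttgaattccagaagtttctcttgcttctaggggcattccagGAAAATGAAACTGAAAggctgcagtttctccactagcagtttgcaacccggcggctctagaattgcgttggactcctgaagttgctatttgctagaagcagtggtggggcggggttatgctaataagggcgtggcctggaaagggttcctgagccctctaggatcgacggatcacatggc
A match is a description of these letters and not evidence of a bound site.

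Among the transcription factors of the program, Irf7, which amplifies interferon production, was at 1.23 and 0.835 CPM in MB_shKap1 and at 58.6 CPM in MT_shKap1. It was thus 47.4-fold and 69.3-fold above the MB libraries, with a fitted log2 change of 5.58 (SE 0.184, adjusted p = 7.62e-08, edgeR). Irf9 went from 11 and 7.54 CPM to 83.8 CPM, with a log2 change of 2.99 (SE 0.137). Stat2 was the steadiest of these, at 28.1 and 27.8 CPM in MB and 131 CPM in MT (2.25, SE 0.123). The MB libraries lay close together for all of these and did not overlap with MT. The sensors and effectors followed. Trim30a, a tripartite motif protein induced by interferon, was at 8.09 and 7.80 CPM and then at 74.0 CPM (log2 change 3.19, SE 0.135, adjusted p = 3.9e-07, edgeR). Its unadjusted p of 2.2e-05 and that of Irf7, 4.67e-05, were among the 5 smallest of higher genes in the fit without the mark term, together with Ifi203 (5.9e-05) and Stat2 (7.24e-05), and each of these had an adjusted p of 0.239 there.

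Igtp, an immunity-related GTPase, went from 1.86 and 0.766 CPM to 39.8 CPM (log2 change 4.45, SE 0.18). Bst2, the membrane protein tetherin that holds virions on the cell surface, went from 13.8 and 4.18 CPM to 160 CPM (3.62, SE 0.156). Usp18, which removes ISG15 from proteins and dampens interferon signalling, went from 1.06 and 0.139 CPM to 60.8 CPM (5.86, SE 0.195). For these 3 genes replicate 2 was lower than replicate 1, so the rise was larger against replicate 2. The RNA-sensing synthetase Oas2 had 2 counts in MB replicate 1, 0 in replicate 2 and 367 in MT, a ratio of 429 between MT and the summed MB counts (95% exact interval 118 to 3550, counting error only). Ifi44 went from 1.20 and 0.394 CPM to 119 CPM and the GTPase Mx2 from 0.296 and 0.0464 CPM to 26.8 CPM. Other members rose by smaller amounts. Eif2ak2, the kinase PKR, was at 36.9 and 44.8 CPM and then 102 CPM (log2 change 1.49, SE 0.122), and B2m, the light chain of MHC class I, at 290 and 170 CPM and then 893 CPM (1.73, SE 0.155). Oas, Ifit, Gbp, Trim30 and Ifi200 genes lie in families of close relatives that can share reads, so the split between relatives is uncertain.

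Macrophages express many interferon genes as well, and their markers were low. The 12 macrophage markers summed to 15.1 and 14 CPM in the MB libraries and 18.6 CPM in MT. Cd14 gave most of each sum (9.99, 9.2 and 10.3 CPM), and Cd68 was at 3.4, 2.0 and 2.4 CPM. In all 3 libraries 8 of the 12 stayed under 1 CPM, and Adgre1 and Tyrobp had 0 counts in each. Within the list Lyz2 rose (0.38, 0.162 and 3.05 CPM), Mrc1 (0.127, 0.603 and 0.904 CPM) and Cd163 (0.444, 1.74 and 1.45 CPM, between the MB libraries) were called higher as well, and 5 tested members did not pass. The part of macrophages in the interferon result was not tested.

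Genes of DNA replication fell together. Of 52, 49 fell and 0 rose, against 16.5% of all genes that fell, all 52 were below both MB libraries (36.5% of all genes) and 14 were at least 2-fold below both (2.5%). Their median log2 difference was -0.94 against replicate 1 and -0.84 against replicate 2. Rrm2, a subunit of the enzyme that makes deoxynucleotides, went from 413 and 328 CPM to 110 CPM (log2 change -1.97, SE 0.142, adjusted p = 1.17e-05, edgeR). Mcm5, of the replicative helicase, went from 216 and 191 CPM to 67.6 CPM (-1.70, SE 0.132), and Cdc6, which loads the helicase, from 46.2 and 41.7 CPM to 16.1 CPM (-1.52, SE 0.132). Cyclin E drives entry into S phase, and its genes Ccne1 (63.8, 48.8 and 19.9 CPM) and Ccne2 (64.5, 53.6 and 17.7 CPM) fell by 1.65 and 1.79 on the log2 scale. For each of these genes the MB libraries lay close together and MT lay below both.

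Many replication promoters hold sites of E2F factors, which release these genes at the start of S phase. TTTCCCGC or TTTGGCGC, on either strand, was present in 12 of the 46 promoters listed for 40 of these genes (26.1%), against 514 of 32851 (1.56%). The promoter of Mcm5 is shown with its match, which lies on the reverse strand, in capitals.
Mcm5 (chromosome 8, 75109259 to 75109558, plus strand): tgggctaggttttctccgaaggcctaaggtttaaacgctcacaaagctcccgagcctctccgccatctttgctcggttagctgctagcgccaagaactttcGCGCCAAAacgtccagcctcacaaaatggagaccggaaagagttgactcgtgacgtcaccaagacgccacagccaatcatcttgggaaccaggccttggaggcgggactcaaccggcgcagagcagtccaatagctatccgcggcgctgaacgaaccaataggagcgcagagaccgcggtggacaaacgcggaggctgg

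Mitosis and cytokinesis genes fell less far. Of 55, 45 fell, 0 rose and 51 were below both MB libraries, but 0 were 2-fold below both, against 16.5%, 16.6%, 36.5% and 2.5% of all genes. Their median was -0.51 against replicate 1 and -0.63 against replicate 2. Aurkb, a kinase of chromosome segregation, went from 120 and 98.7 CPM to 56.5 CPM (log2 change -1.17, SE 0.147), and Smc2, a condensin subunit, from 225 and 250 CPM to 116 CPM (-1, SE 0.133). Mki67, the usual marker of cycling cells, was at 348, 634 and 230 CPM, so MT lay 1.52-fold below one MB library and 2.76-fold below the other. Ccna2 (109, 211 and 76.7 CPM) had the same order and fell by 0.66 (adjusted p = 0.0434, edgeR), a call that was lost with scaling by total library size (adjusted p = 0.0651).

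Regulators of cell cycle exit moved unevenly. Ccnd1, the cyclin that growth factors induce, went from 262 and 332 CPM to 118 CPM (log2 change -1.26, SE 0.169), and Myc from 114 and 62.5 CPM to 43.2 CPM (-1.37, SE 0.129). Cdkn1c, an inhibitor of cyclin-dependent kinases, rose from 2.13 and 2.09 CPM to 6.28 CPM (1.77, SE 0.28, and 2.55 without MB_shKap1 replicate 1). Cdkn1a, the inhibitor p21 that marks exit in myoblasts, was at 267, 140 and 346 CPM and did not pass (0.58, SE 0.336, adjusted p = 0.287, edgeR). In all, 8 of 23 exit genes rose and 4 fell, against 16.6% and 16.5% of all genes, with medians of 0.38 and 0.22 against the MB replicates.

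Ribosome biogenesis genes, which make and assemble ribosomal RNA in the nucleolus, all fell. The 31 tested members fell without exception, against 16.5% of all genes, and each was below both MB libraries (36.5% of all genes). Their median was -1.05 against replicate 1 and -0.83 against replicate 2. Dkc1, the pseudouridine synthase dyskerin, went from 84.0 and 98.2 CPM to 30.4 CPM (log2 change -1.51, SE 0.136, adjusted p = 4.83e-05, edgeR). Ddx21, a nucleolar helicase, went from 335 and 297 CPM to 124 CPM (-1.49, SE 0.143). Nop2, a ribosomal RNA methyltransferase, was at 157, 94.8 and 63.0 CPM. Of the ribosomal proteins themselves 8 of 49 fell and 0 rose, against 16.5% and 16.6% of all genes, so the share that fell was that of all genes, with a median of -0.28 and -0.04 against the MB replicates.

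Other genes that fell against both MB libraries had no list in common. Hmga1, an architectural chromatin protein of growing cells, was at 130 and 139 CPM and then at 27.9 CPM (log2 change -2.29, SE 0.15, adjusted p = 6.1e-06, edgeR). Gpd2, of the mitochondrial glycerol phosphate shuttle, went from 107 and 108 CPM to 36.4 CPM. S1pr3, a receptor for sphingosine 1-phosphate, went from 60.3 and 55.8 CPM to 15.4 CPM and Lrp8, a receptor for reelin, from 31.9 and 41.6 CPM to 7.59 CPM. With Ccne2 these were the 5 lower genes with the smallest p in the fit without the mark term, where their unadjusted p ran from 0.000237 (Hmga1) to 0.000793 (Ccne2) and none passed. For all 5 the MB libraries lay close together and did not overlap with MT.

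Among the larger falls, Tigit, an immune receptor, had MB libraries close together, at 4.67 and 4.13 CPM, and was at 0.207 CPM in MT. Serpinb2, a protease inhibitor, was at 1.03, 0.859 and 0.0516 CPM. Other large falls had MB libraries further apart. Prl2c2, a proliferin of growing cells, was at 212 and 28.6 CPM in MB and 2.17 CPM in MT, but Prl2c genes are near-identical copies and the assignment is uncertain. Its call was lost with no filter on low counts (adjusted p = 0.13, edgeR). Lgr6, a receptor for R-spondins, was at 11.9, 1.51 and 0.362 CPM. Grem1, a secreted BMP antagonist, was at 87.5, 25.4 and 9.38 CPM, and Fosl1, an AP-1 subunit, at 15.4, 10.4 and 2.04 CPM. Gli1, the transcription factor that reports hedgehog signalling, was at 3.06, 8.91 and 0.517 CPM, and its call (adjusted p = 0.0349, edgeR) was lost with no filter on low counts (0.0679).

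**Figure D2:**
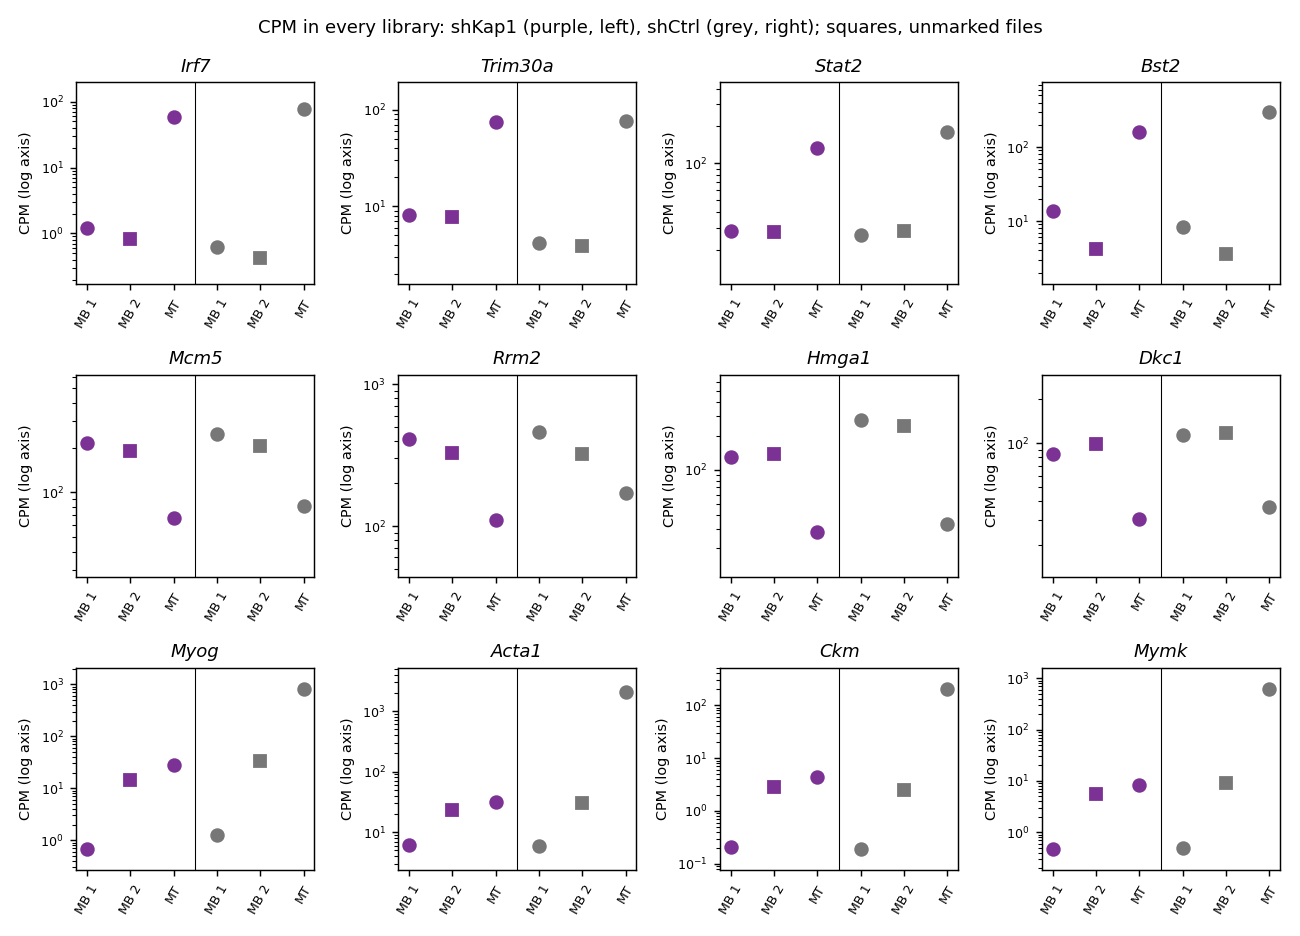
CPM of 12 genes on log axes in the 3 knockdown libraries (purple, left of the line) and the 3 control libraries (grey, right), with circles for marked and squares for unmarked files. Interferon genes (Irf7, Trim30a, Stat2, Bst2) and growth genes (Mcm5, Rrm2, Hmga1, Dkc1) separate MT from both MB libraries in knockdown cells, whereas for Myog, Acta1, Ckm and Mymk the MT knockdown library is near MB replicate 2 and far below the MT control library.

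Muscle genes rose against MB replicate 1 and hardly against replicate 2. Myog, the myogenin gene, was at 0.676 CPM in MB_shKap1 replicate 1, 14.3 CPM in replicate 2 and 28.2 CPM in MT_shKap1, where MT_shCtrl had 818 CPM. MT was thus 41.1-fold above one MB library and 1.97-fold above the other, with a fitted log2 change of 5.53 (SE 0.171, adjusted p = 6.32e-08, edgeR). Without the mark term its unadjusted p was 0.431. Myod1, the determination factor of the lineage, was at 3.44, 20.7 and 25.7 CPM and did not pass (log2 change 2.49, SE 0.535, adjusted p = 0.092, edgeR). Mef2a, a partner of the myogenic factors, was at 52.5, 103 and 122 CPM and rose by 1.18 (SE 0.126). Its relatives Mef2c (0.232, 1.81 and 0.284 CPM, adjusted p = 0.524) and Mef2d (94.2, 81.3 and 83.0 CPM, adjusted p = 0.207) did not pass (edgeR). Bhlhe41, a repressor of the basic helix-loop-helix family, was above both MB libraries at 17.0, 23.7 and 43.1 CPM (log2 change 1.34, SE 0.124).

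Of 31 regulators 11 rose, 7 fell and 13 were not called, where 16.6% of all genes rose and 16.5% fell. Above both MB libraries were 9 and below both 8, smaller shares than the 38.8% and 36.5% of all genes. The medians were 0.5 against replicate 1 and -0.16 against replicate 2. Those that fell included the TEAD factors, which bind MCAT elements of muscle promoters. Tead1 went from 73.9 and 98.1 CPM to 30.0 CPM (log2 change -1.36, SE 0.137) and Tead4 from 4.82 and 7.89 CPM to 1.81 CPM (-1.63, SE 0.316, adjusted p = 0.00743, edgeR). Both were at least 2-fold below each MB library. Mrln, a micropeptide that restrains the calcium pump, had 1 and 27 counts in MB and 113 in MT (0.0211, 0.627 and 2.92 CPM).

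Contractile and Z-disc genes had the widest gap between the MB replicates. Of 54 tested (61 listed, 7 under the filter), 36 rose and 1 fell, against 16.6% and 16.5% of all genes. However, 13 of the 36 were below replicate 2, against 12.7% of all genes that rose. Only 3 of the 54 (Tnnt1, Myom1 and Klhl40) were at least 2-fold above both libraries, against 7.63% of all genes. Of these 3, Myom1 did not pass (adjusted p = 0.112, edgeR). The median log2 difference was 2.51 against replicate 1 and 0.12 against replicate 2. Acta1, skeletal actin, was at 6.19, 23.2 and 31.6 CPM (log2 change 2.48, SE 0.164), 5.10-fold and 1.36-fold above the MB libraries. Tnnt1, the slow troponin T, was at 0.739, 14.9 and 40.5 CPM, and 2.72-fold above replicate 2. Ttn, the giant protein titin, was at 4.44, 13.6 and 24.0 CPM, and Myom2, of the M band, at 0.929, 6.82 and 12.6 CPM. Smyd1, a muscle methyltransferase, lay between the MB libraries at 0.211, 4.80 and 3.62 CPM, and the myosin gene Myh8 did so at 0.148, 0.905 and 0.336 CPM. The call of Myh8 (adjusted p = 0.0486, edgeR) was lost with no filter (0.06) and with DESeq2 size factors (0.0544). The embryonic myosin Myh3 was at 2.22, 11.3 and 13.2 CPM and did not pass (adjusted p = 0.103, edgeR). CAGCTG, the E-box that MyoD and myogenin prefer, is its own reverse complement and was present in 18 of the 50 promoters listed for 41 contractile genes (36%), against 5355 of 32851 (16.3%).

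Calcium handling and membrane genes showed the same pattern, with 25 of 39 rising and 3 falling, against the same shares of all genes, and medians of 1.89 and 0.11 against the MB replicates. Chrng, the fetal subunit of the acetylcholine receptor, was at 0.232, 11.6 and 19.3 CPM (log2 change 6.17, SE 0.204), 79.1-fold above one MB library and 1.67-fold above the other. Atp2a1, the calcium pump of fast muscle, was at 0.845, 10.9 and 11.9 CPM and Ryr1, the calcium release channel, at 1.01, 7.96 and 10.1 CPM. Agrn, the nerve-muscle organiser agrin, is counted with the basement membrane genes below. It rose evenly from 92.4 and 85.2 CPM to 206 CPM (1.11, SE 0.128).

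Among muscle energy genes 10 of 25 rose and 4 fell, against 16.6% and 16.5% of all genes, and the medians were 0.73 and 0.29 against the MB replicates. Ckm, muscle creatine kinase, was at 0.211, 2.83 and 4.44 CPM (log2 change 4.36, SE 0.24) and Mb, myoglobin, at 0.422, 1.62 and 3.49 CPM. Pgam2, the muscle phosphoglycerate mutase, was 3.40-fold and 2.61-fold above the MB libraries at 1.92, 2.51 and 6.56 CPM (1.83, SE 0.197). Of 30 fusion and adhesion genes 9 rose and 3 fell, against 16.6% and 16.5% of all genes, with medians of 0.19 and -0.30. The fusion proteins rose: Mymk was at 0.465, 5.68 and 8.50 CPM (4.46, SE 0.216), and Mymx had 3 and 39 counts in MB and 93 in MT. Adam12, a protease of fusing cells, fell from 63.4 and 42.8 CPM to 21.9 CPM (-1.58, SE 0.139).

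Genes of the extracellular matrix rose in part. Of 50, 20 rose and 6 fell, against 16.6% and 16.5% of all genes. Above both MB libraries were 31 (38.8% of all genes), and 7 were at least 2-fold above both (7.63%). The medians were 0.58 and 0.81. Dcn, the proteoglycan decorin, was at 1.42, 33 and 106 CPM (log2 change 6.38, SE 0.17), 74.5-fold and 3.21-fold above the MB libraries. Cilp, a cartilage matrix protein, is not in this list and was named for the size of its rise. It had 0 and 2 counts in MB and 154 in MT, a ratio of 180 (95% exact interval 49 to 1500). Mgp, matrix Gla protein, was at 12.8, 101 and 161 CPM. Timp1, an inhibitor of metalloproteases, fell from 258 and 157 CPM to 94.8 CPM (-1.41, SE 0.133). Of 20 basement membrane genes 6 rose and 3 fell, against 16.6% and 16.5% of all genes, so the share that fell was near that of all genes. Their medians were 0.42 and 0.07 against the MB replicates. Nid2, a nidogen that links laminin to collagen, rose (188, 268 and 497 CPM, 1.45, SE 0.131). Smooth muscle cytoskeleton genes, which mark contractile mesenchyme, rose in 4 and fell in 7 of 18, against the same shares of all genes. Their medians were -0.13 and 0.32. Mylk, myosin light chain kinase, rose (17.6, 24.0 and 47.1 CPM), and Cnn1, a calponin, lay between its MB libraries (87.2, 11 and 53.4 CPM).

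Signals that act on myoblasts changed as well. Igf2, the growth factor that myoblasts secrete when they differentiate, was at 7.81, 108 and 153 CPM and its neighbour H19, a noncoding RNA, at 213, 2741 and 2352 CPM, so H19 lay between the MB libraries although the fit with the mark term called it (log2 change 3.32, SE 0.187). Igfbp4, which binds insulin-like growth factors, rose evenly from 13 and 15.8 CPM to 36.6 CPM (1.48, SE 0.127). Trim63, the muscle ubiquitin ligase MuRF1, had the largest even rise, from 0.275 and 0.394 CPM to 6.87 CPM (4.90, SE 0.347, and 5.62 without MB_shKap1 replicate 1), among the members of the insulin, IGF and FoxO list named here. In that list 16 of 30 rose and 3 fell, against 16.6% and 16.5% of all genes, with medians of 0.59 and 0.48 against the MB replicates.

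The Id proteins bind the partners of MyoD and hold differentiation back. Id2 fell from 74.6 and 36.3 CPM to 15.9 CPM (log2 change -2.39, SE 0.231), Id1 from 143 and 53.3 CPM to 40.7 CPM, and Id3 from 298 and 140 CPM to 137 CPM, where MT was level with replicate 2 and the call was lost with no filter on low counts (adjusted p = 0.0585, edgeR). Dll1, a Notch ligand of committed myoblasts, rose from 1.37 and 3.88 CPM to 12.2 CPM (3.37, SE 0.24), and Hes6, a repressor that promotes differentiation, from 20.2 and 51.3 CPM to 98.9 CPM (2.32, SE 0.124). Across the list of Id, Notch, TGF beta and BMP genes 9 of 37 rose and 13 fell, against 16.6% and 16.5% of all genes.

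**Figure D3:**
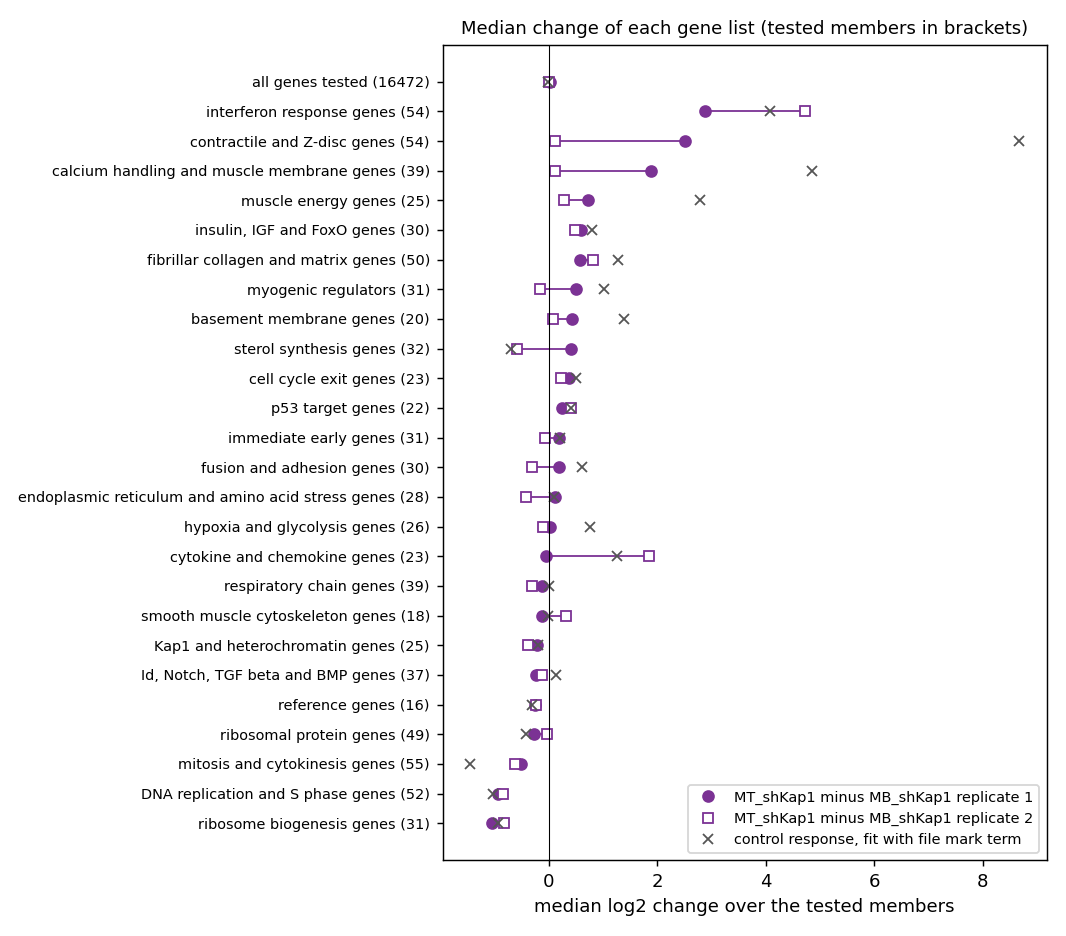
Median log2 change over the tested members of each gene list, as MT_shKap1 minus MB_shKap1 replicate 1 (filled circles) and replicate 2 (open squares), with the fitted control response (crosses), and the number of tested members in brackets. The 2 knockdown values are 2.88 and 4.73 for interferon genes, and both are negative for replication, mitosis and ribosome biogenesis genes. Several other lists also have 2 values of the same sign. For contractile genes the values are 2.51 and 0.12, where the control median is 8.67.

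To compare the knockdown response with that of control cells, both were taken from the fit with the mark term. They use different MB and MT libraries but share the estimate of the mark difference. In control cells 3670 genes rose (22.3%) and 3728 fell (22.6%). Of the control genes that rose, 1919 also rose in knockdown cells, which is 52.3% of the control list and 70.1% of the knockdown list. Of those that fell, 2015 also fell in knockdown cells, 54.1% and 74.4% of the lists. Opposite calls were made for 116 genes. Across the 16472 genes, which are not independent, the MT minus MB replicate 1 differences of knockdown and control correlated with r = 0.716 (Spearman's rho 0.696), and the slope of knockdown on control was 0.452.

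The difference of the responses was tested itself, as the knockdown response minus the control response. It was called for 1722 genes (10.5%), higher in 630 (3.82%) and lower in 1092 (6.63%). With scaling by total library size the split was 919 and 845, so 52.1% of calls were higher instead of 36.6%. Without the mark term 0 were called (edgeR, smallest adjusted p = 0.848, 825 with an unadjusted p under 0.05). Among the 1919 genes that rose in both, the knockdown rise was called smaller for 427 and larger for 14. Among the 2015 that fell in both, the fall was called smaller for 150 and larger for 28. The 860 genes that rose at least 8-fold in control had a median log2 change of 5.09 there and 2.53 in knockdown cells, and 481 of them also rose in knockdown cells. These genes were chosen by their control change, so the medians are a description.

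**Figure D4:**
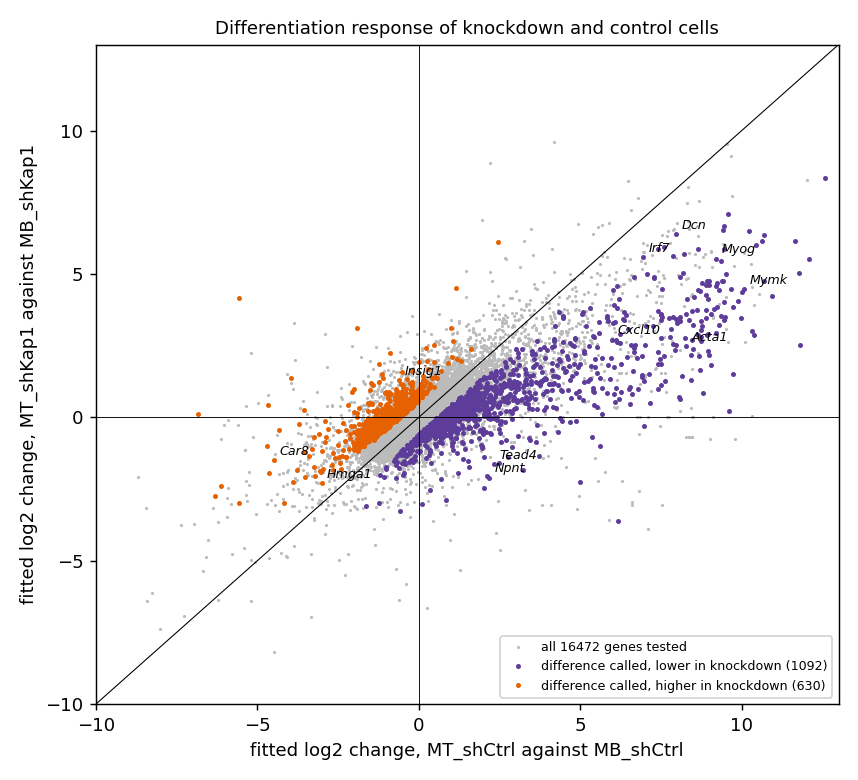
Fitted log2 change of each gene in control cells (horizontal axis) and in knockdown cells (vertical axis), with the diagonal of equal responses. Colours mark the 1092 genes whose difference was called lower and the 630 called higher in knockdown cells, and the muscle genes Acta1, Mymk and Myog lie far below the diagonal.

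Muscle genes were often called on the lower side. The difference was called lower for 43 of 54 contractile genes, 30 of 39 calcium and membrane genes and 16 of 25 energy genes, against 6.63% of all genes. Acta1 reached 31.6 CPM in MT_shKap1 and 2039 CPM in MT_shCtrl, with a difference of -5.81 (SE 0.226, adjusted p = 7.04e-07, edgeR). Mymk reached 8.50 and 627 CPM (-5.60), Ckm 4.44 and 200 CPM (-5.65) and Myh8 0.336 and 94.8 CPM (-8.20). Actn2, which anchors thin filaments, and Ablim3, an actin-binding LIM protein, had 5 and 19 counts in MT_shKap1, at 0.129 and 0.491 CPM, and were at 28.5 and 64.3 CPM in MT_shCtrl.

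Interferon genes rose in both responses. The same 51 of 54 list members rose, by a list median of 3 in knockdown and 4.07 in control cells. The difference was called lower for 16 of 54, against 6.63% of all genes. It depends on the MB levels as well as the MT levels, so it is not a comparison of MT levels alone. Irf9 reached 83.8 CPM in MT_shKap1 and 82.1 CPM in MT_shCtrl (difference 0.00, adjusted p = 0.995, edgeR). Ifi44 reached 119 and 115 CPM (-1.48, adjusted p = 0.305, edgeR), and Irf7 58.6 and 78.5 CPM (-1.38, adjusted p = 0.0079). Cxcl10, a chemokine for T cells, differed more, at 14.5 and 44.6 CPM (-3.30, adjusted p = 0.000701), with MB_shKap1 at 2.32 and 0.116 CPM. A p that misses the threshold does not show that these responses were equal.

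The list medians of growth genes fell in both responses. Replication genes fell by a median of 0.96 on the log2 scale in knockdown and 1.02 in control cells. The difference was called for 5 of 52 (3 lower, 2 higher), near the 10.5% called over all genes. Ribosome biogenesis genes fell by a median of 1.12 and 0.93, with 3 of 31 called, also near that share. Mitosis genes fell less in knockdown cells, by a median of 0.62 against 1.45, and the difference was called higher for 37 of 55, against 3.82% of all genes. Mad2l1, a spindle checkpoint protein, was at 68.5 CPM in MT_shKap1 and 45.7 CPM in MT_shCtrl (difference 0.76, SE 0.164, adjusted p = 0.0154, edgeR). Cdkn1c reached 6.28 and 94.1 CPM (-4.28) and Rb1, the retinoblastoma gene, 52.8 and 129 CPM (-1.18). Ccne1 fell further in knockdown cells, to 19.9 CPM against 32.2 CPM (-0.94).

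Some genes went opposite ways. Npnt, a matrix ligand of integrins, fell in knockdown cells (89.0, 24.9 and 19.4 CPM) and rose in control cells (67.3, 24.9 and 324 CPM), with a difference of -4.27 (SE 0.207, adjusted p = 2.96e-06, edgeR). Tead4 did the same, with 10.3, 9.74 and 45.6 CPM in control cells (-3.96). Zfp36, which destabilises inflammatory messenger RNAs, rose in knockdown cells (24.9, 17.8 and 45.7 CPM) and fell in control cells (21.5, 15.9 and 11.6 CPM), with a difference of 1.80. Lrrc4c, a neuronal adhesion protein, was at 1.06, 0.743 and 2.45 CPM in knockdown and 9.87, 10.0 and 4.91 CPM in control cells, so its opposite calls started from different MB levels. Trim66, a relative of KAP1, was at 0.781, 1.07 and 2.35 CPM and in control cells at 1.48, 1.64 and 0.640 CPM.

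Sterol synthesis genes differed as a list, but not against every library. In knockdown cells 14 of 32 rose and 2 fell, against 16.6% and 16.5% of all genes. In control cells 1 rose and 22 fell, against 22.3% and 22.6%. The difference was called higher for 23, against 3.82% of all genes. All 14 that rose were below MB_shKap1 replicate 2, against 12.7% of all genes that rose. The list medians were 0.41 and -0.58 against the replicates. Insig1, which retains the sterol sensor in the endoplasmic reticulum, was at 64.0, 178 and 157 CPM in knockdown and 73.2, 199 and 47.7 CPM in control cells (difference 1.90, SE 0.162, adjusted p = 6.42e-05, edgeR). Msmo1, a demethylase of the pathway, was at 58.9, 145 and 108 CPM, and 75.5, 169 and 37.7 CPM (1.81). Scd1, a fatty acid desaturase, was at 193, 712 and 388 CPM in knockdown cells.

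Other genes were called on the higher side as well. Car8, a carbonic anhydrase-related protein, fell in both, to 17.2 CPM in MT_shKap1 and 3.04 CPM in MT_shCtrl (difference 2.99, SE 0.198). Kcnmb1, a potassium channel subunit, stayed at 3, 2.78 and 2.74 CPM in knockdown cells and was at 2.10, 1.36 and 0.145 CPM in control cells (3.46). Tnmd, a tendon protein, had 2 and 55 counts in MB_shKap1 and 232 in MT_shKap1 (0.0422, 1.28 and 5.99 CPM), while MT_shCtrl was at 0.165 CPM.

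Markers of other lineages were called in both directions, where 16.6% of all genes rose and 16.5% fell. Adipocyte markers summed to 165, 98.6 and 155 CPM in MB replicate 1, MB replicate 2 and MT, with 0 of 6 tested rising and 3 falling, and Adipoq and Lep had 0 counts in all 3. Osteoblast and chondrocyte markers summed to 104, 111 and 99.1 CPM (3 of 14 rose, 4 fell, Acan at 0). Neural markers summed to 332, 78 and 249 CPM (2 of 10 rose, 2 fell, Elavl4, Rbfox3, Snap25 and Sox10 at 0). Stmn2 alone gave 286, 49.5 and 192 CPM of these sums, and 9 of the 15 neural markers were under 1 CPM in all 3 libraries. Endothelial markers summed to 7.1, 5.62 and 10.8 CPM (1 of 5 rose, Cldn5 and Tie1 at 0) and epithelial markers to 15.2, 5.41 and 5.86 CPM (1 of 5 fell, Cldn3 at 0). Among genes often used as references 1 of 16 rose and 4 fell, a share near the 33.1% called over all genes, and the medians were -0.25 and -0.23, with Actb, cytoplasmic actin, at 2694, 2873 and 1686 CPM.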

How the data were processed

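Cytoplasmic polyadenylated RNA of 6 libraries was analysed. The deposited values are read counts per Ensembl gene (37991 identifiers), made by the authors with TopHat2 2.0.11 on mm9 and HTSeq, per the submitters' processing notes. Annotation release, count mode and strand setting are not stated there, so overlapping and antisense genes cannot be told apart. Lines naming no gene (no feature 5.18% to 8.07%, ambiguous 2.81% to 2.93% of reads) were left out. Symbols came from a later annotation by identifier (32919 found, 99.04% of counts).

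The test was the robust quasi-likelihood F-test of edgeR 4.0.16, run under R 4.3.3 (TMM factors 0.972 to 1.07, filterByExpr by group, 16472 genes, Benjamini-Hochberg within a contrast, threshold 0.05). All 6 libraries entered, with a mean per group, without and with a term for the file mark (2 and 1 residual degrees of freedom, common biological coefficient of variation 32.9% and 9.74%). DESeq2 1.42.0 was an alternative. CPM use TMM-scaled library sizes, and ratios to single libraries add a prior count of 0.5 on the log2 scale. A count of 3, the floor, equals 0.0619 to 0.0775 CPM. Intervals are exact at 95% and cover counting error only.

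The 31 gene lists (960 symbols, 12 matched by an older symbol, 5 without a row), the comparison and the alternatives were chosen with earlier results of these data known. Named genes were, in the fit with the mark term, the 15 largest changes each way outside both MB libraries by 2-fold with at least 1 CPM, the 5 smallest p each way without the term, the 10 largest shared and 5 largest opposite changes each way, the 10 largest differences of the responses each way, up to 4 members of each list by p, and a set of 23 genes. Not every one is printed, and Bst2, Cdc6, Cdh15, Cxcl10, Eif2ak2, Gbp3, Ifit1, Ifitm1, Ifitm2, Irf9, Klhl40 and Myom1 fall outside the rule and were chosen after their values were seen.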

Additional observations from a re-analysis of the deposited data

Results flagged for a closer look

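The genes below come from 134 genes named in this report, and not from all genes tested. They are those for which the test of the difference itself passed at an adjusted p of 0.05 (edgeR). That difference is the knockdown response minus the control response in the fit with the file mark. Over all genes 1722 passed, and some of the named genes had been chosen for the size of this difference. All values are differences on the log2 scale, and none passed without the mark term. No explanation was tested.

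For transcription factors and other regulators the difference was -3.68 for Myog, -1.70 for Mef2a, -6.66 for Mef2c, -1.24 for Mef2d, -1.24 for Tead1, -3.96 for Tead4, -1.19 for Hes6 and -2.50 for Dll1. Contractile genes gave -5.81 for Acta1, -3.61 for Tnnt1, -5.45 for Ttn, -4.67 for Myom2, -4.35 for Smyd1, -8.20 for Myh8, -4.20 for Klhl40, -7.44 for Actn2, -7.33 for Ablim3 and -1.25 for Des. MT_shKap1 held so few reads of Myh8, Actn2, Ablim3 and Mef2c that the size of their difference depends on small counts.

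Calcium handling, membrane and energy genes gave -4.48 for Chrng, -5.44 for Atp2a1, -4.99 for Ryr1, -1.65 for Trdn, -5.65 for Ckm, -5.43 for Mb and -4.04 for Pgam2. Fusion genes gave -5.60 for Mymk, -3.94 for Mymx and -1.96 for Adam12. Matrix genes, growth factor genes, a noncoding RNA (H19) and a ubiquitin ligase (Trim63) gave -1.59 for Dcn, -0.67 for Mgp, -1.15 for Nid2, -1.47 for Agrn, -4.27 for Npnt, -4.83 for Igf2, -2.26 for H19, -1.58 for Igfbp4 and -1.77 for Trim63.

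Interferon genes and chemokines gave -1.38 for Irf7, -1.54 for Usp18, -1.56 for Igtp, -1.03 for Trim30a, -1.43 for Bst2, -0.997 for Gbp3, -3.30 for Cxcl10 and -1.01 for Ccl2. Genes of the cell cycle, growth, hypoxia and glycolysis gave -0.95 for Ccne1, -0.77 for Ccne2, -4.28 for Cdkn1c, -1.18 for Rb1, -0.69 for Nop2, -0.81 for S1pr3, -1.74 for Fosl1, -1.64 for Fosl2, -1.94 for Hk2 and -1.20 for Pdk1. Ccne1, Ccne2, Nop2, S1pr3, Fosl1 and Ccl2 fell in both responses, so for them this stands for a larger fall. Cdkn1c, Rb1 and Pdk1 rose in both and less in knockdown cells. Hk2 fell in knockdown cells and rose in control cells.

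A higher value in the knockdown response was found as 0.76 for Mad2l1, 0.71 for Hmga1, 1.80 for Zfp36, 1.81 for Msmo1, 1.90 for Insig1, 0.91 for Scd1, 2.63 for Trim66, 2.46 for Lrrc4c, 2.99 for Car8, 3.67 for Tnmd, 3.46 for Kcnmb1, 2.19 for Cnn1, 0.64 for Ddit3 and 0.95 for Map2. For Hmga1, Mad2l1, Car8 and Cnn1 this stands for a smaller fall, since they fell in both responses.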

How the results depend on the processing

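Whether the file mark enters decides the calls, and since the mark separates replicate 1 from replicate 2 within MB, that term is also the replicate block. In MB cells the difference of replicate 2 from replicate 1 correlated between knockdown and control across genes (r = 0.716, rho 0.669), with only 2 pairs and no numbered MT pair, so the numbers are not shown to pair the samples. With the replicate block 5446 genes were called, and with no replicate block 0 were called for the knockdown response, 0 for the difference of the responses and 0 for genes shared with control cells. Without the mark, no filter on low counts gave 2 calls (Irf7 and Trim30a, adjusted p = 0.0494 each, edgeR) and DESeq2 751, of which 734 were called in the same direction by edgeR with the mark. Fitting only the 3 knockdown libraries called 0 (smallest adjusted p = 0.433, edgeR, 1627 with an unadjusted p under 0.05). With the mark, DESeq2 called 2763 in place of 5446 (1232 higher, 1531 lower) and 901 in place of 1722 for the difference. The 1668 genes 2-fold beyond both MB libraries became 3672 with no filter, 3073 against replicate 1 alone, 380 at 4-fold and 12394 at any size, the last chosen after seeing the data, and 3073 to 3587 without one MB_shKap1 replicate. With no replicate block the log2 changes of Myh8 (-0.63), Des (-0.026), Scd1 (-0.22) and Cnn1 (0.12) reversed. List medians with no replicate block were 0.77 for contractile, 0.20 for muscle energy, -0.89 for replication, 0.15 for cell cycle exit, 0.51 for insulin and IGF, -0.95 for ribosome biogenesis, 0.25 for macrophage, 0.21 for epithelial and -0.22 for reference genes. With total library size they were -0.88 for replication, -0.21 for Id and Notch, 0.11 for epithelial and -0.16 for reference genes, and with no filter 0.18 for epithelial and -0.28 for reference genes. Leaving out one MB library leaves no residual degrees of freedom with the mark, so it gave values without a test: medians ran from 0.51 to 0.83 for muscle energy, -1.05 to -0.94 for replication, -0.86 to -0.51 for mitosis, 0.38 to 0.49 for cell cycle exit, 0.59 to 0.75 for insulin and IGF, -1.29 to -1.05 for ribosome biogenesis, -0.22 to 0.03 for hypoxia, 0.08 to 0.60 for endothelial, -0.58 to 0.28 for epithelial and -0.27 to -0.24 for reference genes. The causes of these shifts were not tested. Genes near the floor of 3 counts are limited by depth.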

Other observations

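Stress and inflammatory genes moved in smaller groups. Of 28 endoplasmic reticulum and amino acid stress genes 13 rose and 6 fell, against 16.6% and 16.5% of all genes, but 8 were above both MB_shKap1 libraries, a smaller share than the 38.8% of all genes. Ddit3, the stress transcription factor CHOP, was at 46.5 and 72.6 CPM in MB and 180 CPM in MT (log2 change 1.96, SE 0.119), above both. Trib3, its target, was at 9.71, 100.2 and 104 CPM and so level with replicate 2, as was Chac1, which degrades glutathione (19.9, 73.3 and 77.9 CPM). Of 23 cytokine and chemokine genes 8 rose and 8 fell, each above the share of all genes. However, 10 were above both MB_shKap1 libraries and only 2 below both, against 38.8% and 36.5% of all genes. The list medians were -0.05 against replicate 1 and 1.84 against replicate 2, so most of the falls did not hold against replicate 2. Csf1, the macrophage growth factor, fell from 928 and 428 CPM to 352 CPM (-1.41, SE 0.135), and the monocyte chemokine Ccl2 lay between widely separated MB libraries (495, 12.9 and 113 CPM).

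Hypoxia and glycolysis genes rose in 5 and fell in 8 of 26, against 16.6% and 16.5% of all genes, so the share that rose was near that of all genes. In control cells 19 rose, against 22.3% of all genes. The difference of the responses was called lower for 17, against 6.63%. Ndrg1, a stress-responsive gene, rose from 61.1 and 117 CPM to 252 CPM (log2 change 2.05, SE 0.121), while Hk2, a hexokinase, fell from 77.9 and 55.3 CPM to 34.0 CPM where MT_shCtrl had 122 CPM. Pdk1, which holds pyruvate back from mitochondria, was at 27.1, 50.9 and 57.4 CPM. Respiratory chain genes moved little, with 1 of 39 rising and 5 falling, below the shares of all genes, among them Cycs, cytochrome c (214, 203 and 110 CPM).

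Of 25 genes of Kap1 and heterochromatin 3 rose and 10 fell, against 16.6% and 16.5% of all genes. Dnmt1, the maintenance DNA methyltransferase, fell from 260 and 250 CPM to 116 CPM (-1.24, SE 0.146), and its partner Uhrf1 from 217 and 262 CPM to 92.3 CPM (-1.34, SE 0.16). Among 22 p53 targets 5 rose and 3 fell, shares near those of all genes, with Sesn2, a sensor of nutrient stress, at 42.1, 62.0 and 85.9 CPM. Immediate early genes rose in 10 and fell in 8 of 31, also against 16.6% and 16.5%. Spry2, an inhibitor of receptor tyrosine kinase signalling, rose (15.9, 36.7 and 50.7 CPM) and Fosl2, an AP-1 subunit, fell (134, 70.0 and 53 CPM). Among the neural markers Map2, a microtubule protein of neurons, rose from 12 and 10.0 CPM to 30.1 CPM, while the neurofilament gene Nefm (0.57, 0.0696 and 0 CPM) and the myelin gene Mbp (2.87, 0.673 and 1.21 CPM) fell. Of the endothelial markers Tek, a receptor, rose from 0.697 and 0.139 CPM to 2.71 CPM.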
